A study of Mus musculus with 33 samples.

Results

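The VK genes described here are the 56 annotated mouse VK gene segments that the study's gene list does not class as functional, other than those of families 4 and 8 and IGKV1-131. The rule uses the class and the names alone, but it was set with earlier results of these data known, and it takes 56 of the 163 VK genes of the list. The list gives 52 of them as pseudogenes, 2 as open reading frames (V ORF) without a functional class (IGKV1-35 and IGKV15-103) and 2 as unknown (among them IGKV20-101-2). They lie across the Igk locus on chromosome 6 and belong to 12 families, of which family 13 gives 17 members, family 2 gives 7 and family 12 gives 6. Of the 56, 41 are in forward orientation.

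VK-JK recombination was measured by VDJ-seq, which captures the genomic DNA of VK-JK joints with JK primers and reads which VK gene was joined. Cells were sorted ex vivo from bone marrow of C57BL/6 mice aged 4 to 5 weeks, of both sexes. Wild-type (Wapl+/+) and homozygous mutant (Wapl∆P1,2/∆P1,2) mice gave 4 libraries each at the pre-B and 6 each at the pro-B stage, and the question was whether Wapl expression alters the use of VK genes at each stage. The mutant mice carry germline deletions of P1, a site in the Wapl promoter to which Pax5 binds, and of a region downstream of the gene that holds another such site, P2, so that Wapl, the factor that releases cohesin from chromatin, is kept at a high level. Both stages were sorted as B220+ cells without IgM and IgD on the surface, pro-B cells being Kit+CD25- and pre-B cells Kit-CD25+. Pre-B cells normally carry out most Igk recombination, and pro-B cells recombine the locus at a low level.

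A VK gene can be joined to a JK element when the RAG recombinase recognises the recombination signal sequence (RSS) that directly follows its coding part. The RSS of a VK gene has a heptamer, a spacer of about 12 bases and a nonamer. A pseudogene has lost the capacity to encode a V region, through a stop codon, a frameshift or a truncation, but its RSS may be intact, and a joint to it then counts as a recombination event although it cannot give a light chain. The cell then needs a further joint to make a kappa light chain.

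The RSSs below were read on the coding strand of each gene from genome build NCBIM37 (mm9), heptamer and nonamer in capitals and spacer in lower case. The search compared 16 positions, the 7 of the heptamer CACAGTG and the 9 of the nonamer ACAAAAACC, at spacers of 11 to 13 bases, and took the best match around the end of each listed gene. First come the 6 most used members, each with a mean of at least 0.05% of all joints in at least 1 group, and the second gene listed beside IGKV14-126.
IGKV12-40 (chr6:69829316-69829343, reverse strand): CACAGTGattcaagccatgACATAAACC
IGKV20-101-2 (chr6:68425096-68425123, forward strand): CACAGTGatataagtcataACATAAACC
IGKV15-103 (chr6:68387920-68387947, forward strand): CACAGTGatataagtcatgACACAAACC
IGKV9-119 (chr6:68006805-68006832, forward strand): CACAGTGattcaaatcacaACATAAACC
IGKV14-126 (chr6:67826472-67826500, forward strand): CAGAGTGgtccagaacttaaAAAAAAATC
IGKV14-126-1 (chr6:67846637-67846664, forward strand): CACGTTGatacaagtaataACATAAACC
IGKV9-128 (chr6:67797869-67797896, forward strand): CACAGTGattcaaatcataACATAAACC
The next set shows members that were at 0 in all 20 libraries although their RSS matched the consensus at 15 positions, followed by IGKV13-55-1, a truncated family 13 member at 0 whose best match reached only 9 positions.
IGKV17-134 (chr6:67670695-67670722, reverse strand): CACAGTGctatgtcctcttACAGAAACC
IGKV12-66 (chr6:69284570-69284597, reverse strand): CACAGTGgtacaagcaatgACATAAACC
IGKV11-106 (chr6:68289990-68290017, forward strand): CACAGTGatacaagtaatgACATAAACC
IGKV2-105 (chr6:68299436-68299463, forward strand): CACAGTGatacagctctgaACAAAATCC
IGKV14-118-1 (chr6:68033116-68033143, forward strand): CACAGTGatagaagccataACATAAACC
IGKV3-11 (chr6:70504435-70504462, forward strand): CACAGTGctccagggctgaACAAAAATC
IGKV13-55-1 (chr6:69550295-69550323, forward strand): CCTAGTAgatgtacacctttAGAAATAAA
For comparison, a functional gene and the member with the best match of all are given.
IGKV16-104 (chr6:68376067-68376094, forward strand): CACAGTGatacaagtcataACAAAAACC
IGKV3-8 (chr6:70539447-70539474, forward strand): CACAGTGctccagggctaaACAAAAACC

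Of the 6 most used members, 5 have the complete heptamer and match the consensus at 15 of 16 positions. The RSS of the pseudogene IGKV12-40 is letter for letter that of 4 functional genes of its family, IGKV12-38, IGKV12-41, IGKV12-44 and IGKV12-46. The exception is IGKV14-126, whose listed place ends in a heptamer that does not start with CAC. The name of that gene is not settled. The study's list puts IGKV14-126 (467 bases) next to IGKV17-127 and IGKV14-126-1 (466 bases) next to IGKV11-125, whereas RefSeq and GENCODE vM1 use the name Igkv14-126 for the gene of 466 bases next to Igkv11-125. The value printed for IGKV14-126 can thus not be tied to 1 of the 2 places, and neither place holds a complete heptamer.

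**Figure D1:**
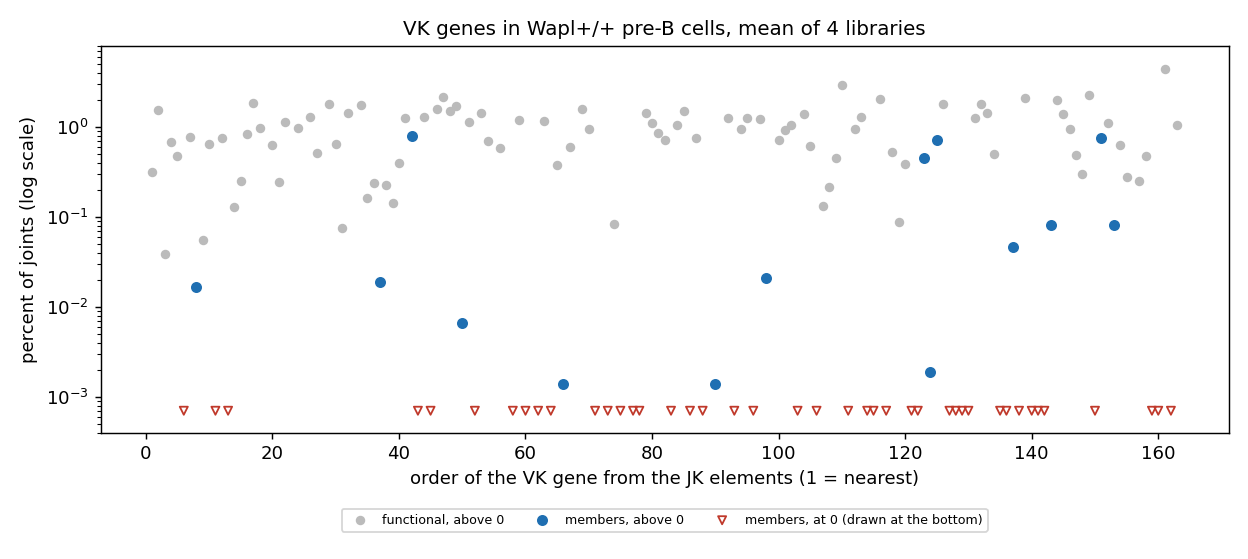
Mean recombination frequency in the 4 Wapl+/+ pre-B libraries (vertical axis, percent of joints, log scale) of functional VK genes and of the members, ordered by distance from the JK elements (horizontal axis). Members at 0 in these libraries are drawn as open triangles at the bottom; 4 members reach above 0.4% and lie among the functional genes.

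Most of the members were not found in joints. A value above 0 in any of the 20 libraries was seen for 14 of the 56, and 42 (75%) were at 0 in all of them. None of the 92 functional genes was at 0 in all libraries, and 52 of them were above 0 in every library. Only 1 member, IGKV15-103, was above 0 in every library. Of the 14 not functional genes of families 4 and 8, 3 were at 0 throughout. The members found in joints comprised both V ORF genes, 1 of the 2 unknown genes and 11 of the 52 pseudogenes. Families 2 (7 members) and 11 (3 members) had no member above 0, while family 13 had 3 of 17 and family 12 had 2 of 6.

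The libraries differed widely in what they could show. The deposited value is not a read number, but the smallest value above 0, expressed as a percent of the library's VK total, was 0.0018% to 0.0122% in Wapl+/+ pre-B libraries and 0.0398% to 0.610% in Wapl+/+ pro-B libraries. The deposited VK totals were 4.87 to 6.77 in Wapl+/+ and 4.89 to 6.60 in mutant pre-B libraries, against 0.0740 to 0.176 in Wapl+/+ and 0.152 to 0.377 in mutant pro-B libraries. One library stood apart: Wapl+/+ pro-B replicate 2 had the smallest value of 0.610%, 57 functional genes above 0 and only 2 members above 0, IGKV15-103 and IGKV9-128. The main limma fold changes of single members that are given below and contain it are repeated without it. In the interaction they are given as a range. Alternative fits that contain it and the fits of neighbouring genes are given with it only. A 0 in a pro-B library says only that the gene was not detectable at that depth.

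The 8 remaining members found in joints were rare. The highest group means were 0.0458% for IGKV1-115, 0.0395% for IGKV3-8, 0.0254% for IGKV13-82, 0.0192% for IGKV1-35 and 0.0131% for IGKV12-47, and those of IGKV15-102, IGKV13-76 and IGKV13-57-2 were at most 0.00215%. IGKV3-8, IGKV1-35, IGKV12-47, IGKV13-82 and IGKV1-115 were above 0 in all 8 pre-B libraries, so that joints were repeatedly assigned to them at a low level. Whether reads of related genes contributed to these values was not tested. The lowest mean of any functional gene in Wapl+/+ pre-B cells was 0.0388%, and of these 8 members IGKV1-115 alone, at 0.0458% ± 0.0170 (SD, n = 4), was above it.

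The RSS was compared between the members found in joints, the members at 0 and the functional genes. At least 13 of 16 positions matched in 13 of the 14 members found in joints, in 22 of the 42 members at 0 and in all 92 functional genes. A heptamer that starts with CAC, the bases next to the RAG cut, was present in 12 of the 14, in 20 of the 42 and in all 92, and the complete heptamer in 9, 10 and 83. In all VK genes of the locus with listed positions, 85.2% had at least 13 matches. An open reading frame over the last 240 bases of the listed gene was found in 5 of the 14, 9 of the 42 and all 92. IGKV20-101-2, whose listed span of 211 bases is shorter than that window, was counted as not open. The octamer ATTTGCAT, the sequence in V gene promoters to which Oct factors bind, was sought together with its reverse complement. Either stood in the 250 bases upstream of 6 of the 14, 15 of the 42 and 67 of the 92, and of 58.0% of all VK genes. These counts are descriptions of the letters in these windows.

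**Figure D2:**
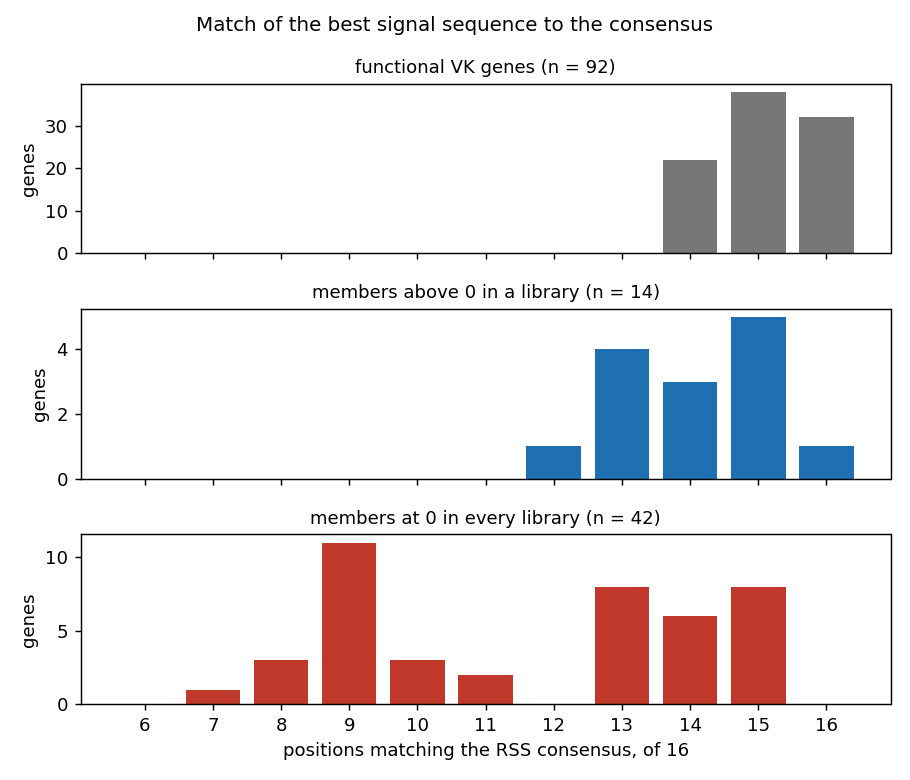
Number of genes (vertical axes) by the number of positions, of 16, at which the best RSS matched the consensus (horizontal axis), for functional VK genes, for the 14 members found in joints and for the 42 members at 0 in all libraries. Functional genes start at 14 matches, and the members at 0 fall into a set of 20 genes below 13 matches and a set of 22 at 13 to 15.

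Among the members at 0, family 13 stood out in number. Of its 14 members at 0, 2 had a heptamer starting with CAC and none had the complete heptamer, and the listed genes were as short as 49 bases. Its 3 members found in joints all had CAC, at 13 or 14 matches. A well matched RSS did not go along with use in every case. At 15 matches, 8 members were at 0 in all libraries, of which 5 also had an open frame over the window. IGKV17-134, which is 94.8% identical to the functional IGKV17-127, carries the same RSS as IGKV17-127 and IGKV17-121. It was at 0 in all 20 libraries, while IGKV17-127 was at 1.10% and IGKV17-121 at 1.40% of joints in Wapl+/+ pre-B cells. IGKV2-116, 94.5% identical to the functional IGKV2-109, likewise shared its RSS and was at 0, with IGKV2-109 at 1.25%. How reads that fit more than 1 VK gene were assigned is not given in the sources used here, and its part in these values at 0 was not tested. The annotations also differ for some members. RefSeq (GRCm38.p6) lists IGKV1-35, IGKV20-101-2 and IGKV15-103 as V segments and the other 53 as pseudogenes, whereas GENCODE vM1 has a gene of type IG_V_gene over 7 of the 56, IGKV17-134 and IGKV2-116 included. All 3 genes that RefSeq lists as V segments were found in joints.

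H3K27ac, a mark of active promoters and enhancers, was available as a peak list from 1 library of Rag1 Cre/Cre pro-B cells. None of the 56 members lay within 10 kb of a peak, against 3 of the 92 functional genes and 1.85% of all VK genes with listed positions. The median distance to the nearest peak was 800 kb for the members, 492 kb for functional genes and 614 kb for all VK genes. Many genes share the same nearest peak, so that these distances describe position in the locus. With 1 library and no scores in the list, no test was made.

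IGKV15-103 was the most used member in pro-B cells and IGKV12-40 in Wapl+/+ pre-B cells. In Wapl+/+ pre-B cells the order of the means was IGKV12-40 (0.800% ± 0.0238, SD, n = 4), IGKV14-126 (0.762% ± 0.0586), IGKV15-103 (0.723% ± 0.0309), IGKV20-101-2 (0.450% ± 0.0313), and IGKV9-119 and IGKV9-128 at 0.0815% each. The libraries of IGKV12-40 and IGKV14-126 overlapped, as did those of IGKV14-126 and IGKV15-103, whereas every library of IGKV20-101-2 was below every library of these 3 genes. The median functional gene had 0.945%. IGKV12-40 thus ranked 53 among all VK genes and exceeded 42 of the 92 functional genes, and IGKV9-119 and IGKV9-128 each exceeded 3. In Wapl+/+ pro-B cells IGKV15-103, at 1.23% ± 0.334 (SD, n = 6), ranked 22 and exceeded 71 of the 92 functional genes.

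**Figure D3:**
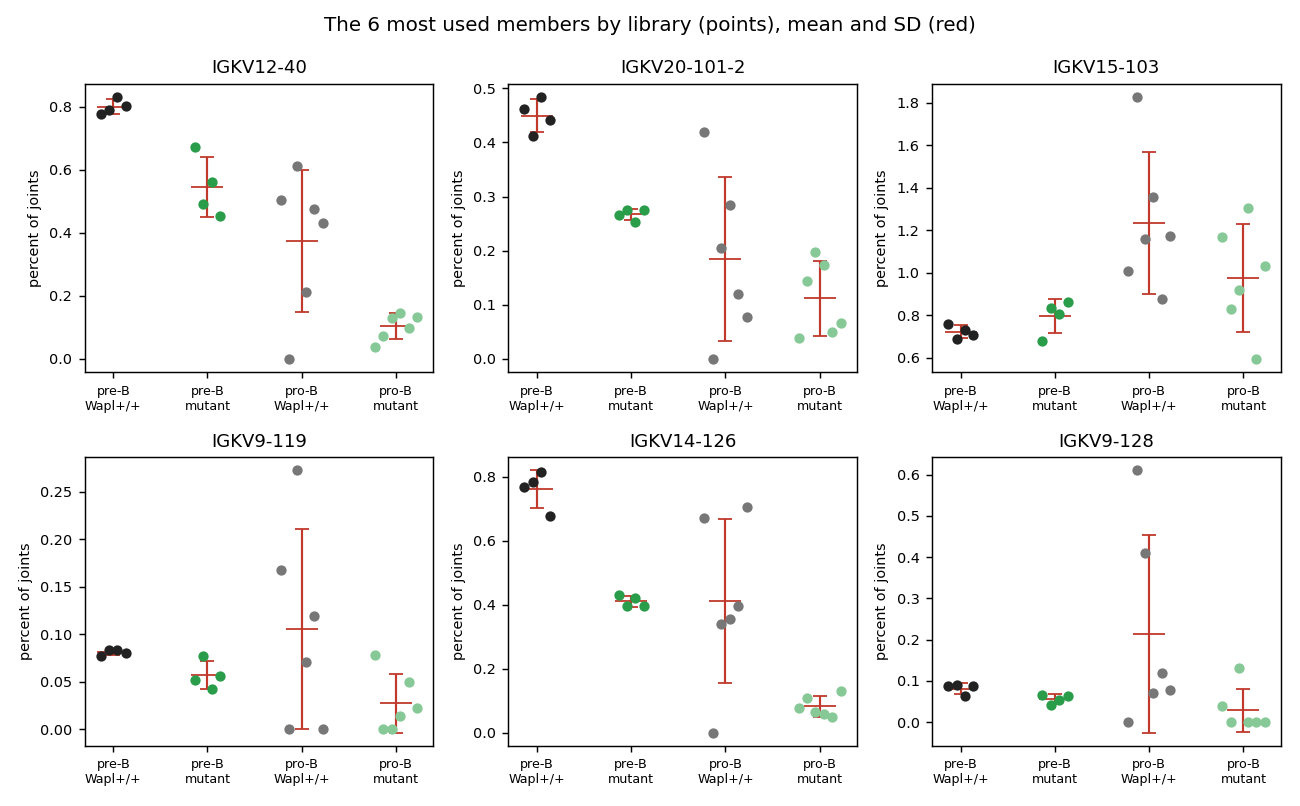
Percent of joints (vertical axes, 1 panel per gene, scales differ) in each library (points) of the 4 groups, with mean and SD in red, for the 6 most used members. In pre-B cells all 4 mutant libraries lie below all 4 Wapl+/+ libraries for IGKV12-40, IGKV20-101-2, IGKV9-119 and IGKV14-126, and 3 of 4 mutant libraries lie above them for IGKV15-103.

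Summed over all 56 members, joints to these genes made up 3.01% ± 0.0809 (SD, n = 4) of Wapl+/+ pre-B joints, with a range of 2.93% to 3.10%. The sum was 2.22% ± 0.0345 (n = 4, 2.19% to 2.25%) in mutant pre-B cells, 2.59% ± 0.294 (n = 6, 2.19% to 3.0%) in Wapl+/+ pro-B cells (2.62% without replicate 2) and 1.44% ± 0.266 (n = 6, 0.992% to 1.76%) in mutant pro-B cells. All mutant libraries were below all Wapl+/+ libraries of the same stage, at ratios of 0.738 in pre-B and 0.558 in pro-B cells. The same ratios were 0.813 and 0.790 for the not functional genes of families 4 and 8, and 1.02 and 1.02 for the functional genes, which hold over 90% of joints. Within the member sum, IGKV15-103 gave 24% in Wapl+/+ and 35.9% in mutant pre-B cells, and 48.2% in Wapl+/+ and 67.1% in mutant pro-B cells. Taken as deposited, without scaling each library to its VK total, the member sums were 0.172 and 0.129 in Wapl+/+ and mutant pre-B cells but 0.00347 and 0.00375 in Wapl+/+ and mutant pro-B cells, so that in pro-B cells the lower mutant sum holds for the share of joints and not for the deposited value.

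**Figure D4:**
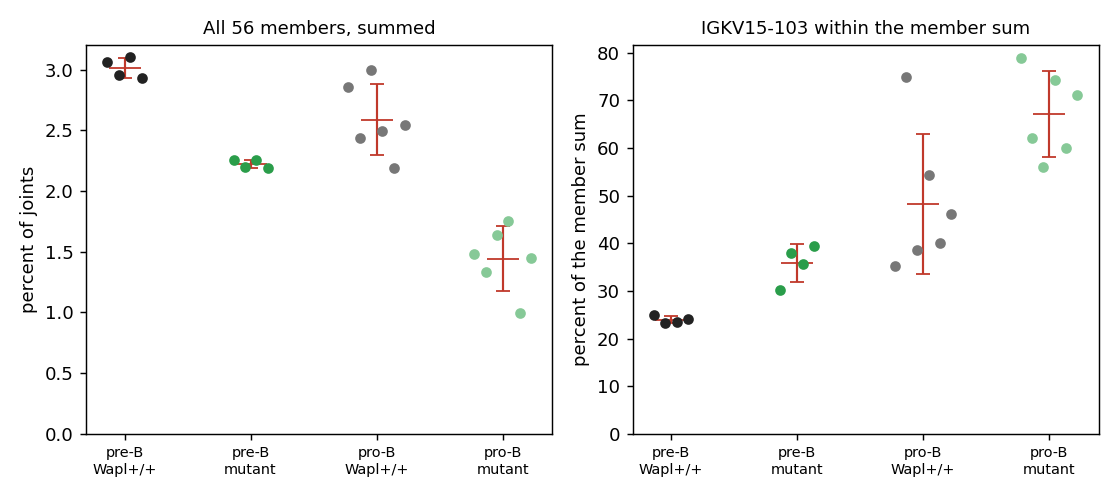
Left, percent of all VK-JK joints that fell on the 56 members in each library (points), with mean and SD in red; right, percent of that sum given by IGKV15-103. On the left the 4 mutant pre-B libraries lie at 2.19% to 2.25%, below the Wapl+/+ range of 2.93% to 3.10%, and on the right 1 Wapl+/+ pro-B library, replicate 2, lies at 75.0%.

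The first comparison asked whether the members were used differently in mutant and Wapl+/+ pre-B cells. The filter, a mean of 0.05% over the libraries compared, left 6 of the 56 members. Of these, 5 fell and none rose in the mutant (limma on log2(percent + 0.05), Benjamini-Hochberg over 107 VK genes, adjusted p threshold 0.05). Over all VK genes tested, 45.8% were called lower and 21.5% higher, so a lower call was common. Centring each library on its median gene moved this comparison by only 0.02, but the call of IGKV9-119 was then lost (limma adjusted p 0.0585) and 4 members were called lower. The median log2 fold change of the 6 members was -0.42, beside -0.18 for all genes tested. Since the values are shares, a gene can fall because others rise, and how much of the difference comes from that was not tested.

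IGKV14-126, a pseudogene of the distal part of the locus, had the largest change of the 6. It was at 0.768%, 0.783%, 0.817% and 0.679% of joints in the Wapl+/+ libraries and at 0.430%, 0.397%, 0.421% and 0.395% in the mutant libraries. The groups did not overlap, and the log2 fold change was -0.81 (SE 0.09, adjusted p 6.55e-07 in limma). IGKV20-101-2, the member of class unknown, had 0.463%, 0.411%, 0.484% and 0.441% in Wapl+/+ and 0.267%, 0.276%, 0.253% and 0.274% in mutant cells. These did not overlap either, and the log2 fold change was -0.65 (SE 0.09, limma adjusted p 1.13e-05). IGKV12-40, the pseudogene with the RSS of its functional relatives, had 0.777%, 0.789%, 0.832% and 0.803% in Wapl+/+ and 0.672%, 0.493%, 0.563% and 0.454% in mutant cells, again without overlap, at a log2 fold change of -0.53 (SE 0.10, limma adjusted p 3e-04). These 3 genes were also called lower in each of the 2 series of experiment numbers that the labels give for the pre-B libraries, taken alone, with log2 fold changes of -0.83 and -0.80 for IGKV14-126, -0.60 and -0.71 for IGKV20-101-2 and -0.41 and -0.64 for IGKV12-40 in the lower and the higher numbers.

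The related pseudogenes IGKV9-119 and IGKV9-128, which are 94.6% identical to each other, were much rarer. IGKV9-119 had 0.0777% to 0.0840% in Wapl+/+ and 0.0430% to 0.0773% in mutant cells, and its groups did not overlap. IGKV9-128 had 0.0625% to 0.0894% in Wapl+/+ and 0.0405% to 0.0658% in mutant cells, and 2 of 4 mutant libraries were below all Wapl+/+ libraries. Their log2 fold changes were -0.31 (SE 0.11) and -0.31 (SE 0.12), with limma adjusted p-values of 0.0266 and 0.028. Both calls rest on single libraries. That of IGKV9-119 was lost without Wapl+/+ replicate 2 (adjusted p 0.0673) and without mutant replicate 1 (0.0551), 3 (0.0883) or 4 (0.0583). That of IGKV9-128 was lost without Wapl+/+ replicate 1 (0.0649), 2 (0.0822) or 4 (0.0687) and without mutant replicate 2 (0.0776). Neither was called within 1 series of experiment numbers.

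IGKV15-103, the V ORF gene, was the only 1 of the 6 with a higher mean in the mutant. It had 0.762%, 0.690%, 0.731% and 0.708% in Wapl+/+ and 0.681%, 0.835%, 0.805% and 0.864% in mutant cells, so that 3 mutant libraries were above and 1 was below all Wapl+/+ libraries. The log2 fold change of 0.13 (SE 0.09) did not pass the test (limma adjusted p 0.199). Without mutant replicate 1, the lowest of that group, it was 0.20 with a limma adjusted p of 0.0318.

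The functional genes that lie next to these members gave a measure of the surroundings. Of all 92 functional genes, 39 were called lower and 23 higher in mutant pre-B cells. All 9 functional neighbours of the 6 members, some of them shared between members, were called lower, with log2 fold changes from -0.23 (IGKV1-117) to -1.13 (IGKV17-127). On either side of IGKV12-40 they were -0.62 (IGKV5-39) and -0.41 (IGKV12-41), and at IGKV14-126 they were -0.82 (IGKV11-125) and -1.13 (IGKV17-127). Both neighbours of IGKV15-103 fell, IGKV14-100 by 0.36 and IGKV16-104, only 11.4 kb away, by 0.37 on the log2 scale.

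The ratio of a member to its nearest functional gene was compared for all 6 members in pre-B and in pro-B cells, a set of 12 tests chosen after the values were seen. The tested value was the log2 ratio with 0.05% added to both shares, so that for rare members it still depends on the scaling. For IGKV15-103 and IGKV16-104 the ratio was 0.442, 0.385, 0.367 and 0.393 in Wapl+/+ pre-B libraries and 0.466, 0.639, 0.635 and 0.538 in mutant pre-B libraries. All 4 mutant ratios were above all Wapl+/+ ratios, and the mean tested value was 0.49 higher (exact permutation test, two-sided, p 0.0286, which is the lowest value possible in this design). The ratio of IGKV14-126 to IGKV17-127 also was higher in 4 of 4 mutant pre-B libraries, by 0.31 (same exact test, p 0.0286). Other pre-B ratios went the opposite way, that of IGKV20-101-2 to IGKV14-100 by -0.29 and that of IGKV12-40 to IGKV12-41 by -0.12, each with 3 of 4 mutant libraries below all Wapl+/+ libraries (same exact test, p 0.0571 for both). The ratio of IGKV9-119 to IGKV9-120 was 0.0382 to 0.0418 in Wapl+/+ and 0.0314 to 0.0597 in mutant pre-B libraries, and that of IGKV9-128 to IGKV9-129 was 0.105 to 0.145 and 0.105 to 0.167, so that the groups overlapped. For this rare pair the tested values were higher by 0.26 and 0.24 (same exact test, p 0.0571 and 0.171), but the added 0.05% is close to their shares and no direction is read from them. IGKV17-127 is the nearest functional gene only at the place the list gives for IGKV14-126. At the other place it is IGKV11-125, whose log2 fold change of -0.82 was close to the -0.81 of the member. In pro-B cells, leaving out the rare pair, the differences were 0.11 for IGKV15-103 and 0.27 for IGKV14-126 (same exact test, p 0.753 and 0.654). They were -0.52 for IGKV20-101-2 and -0.01 for IGKV12-40 (same exact test, p 0.188 and 0.978). Over the 12 tests no ratio passed, with adjusted exact p-values of at least 0.137, but the 6 pre-B tests could not have passed by themselves even if each had reached the lowest p, so this says nothing about the pre-B ratios.

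**Figure D5:**
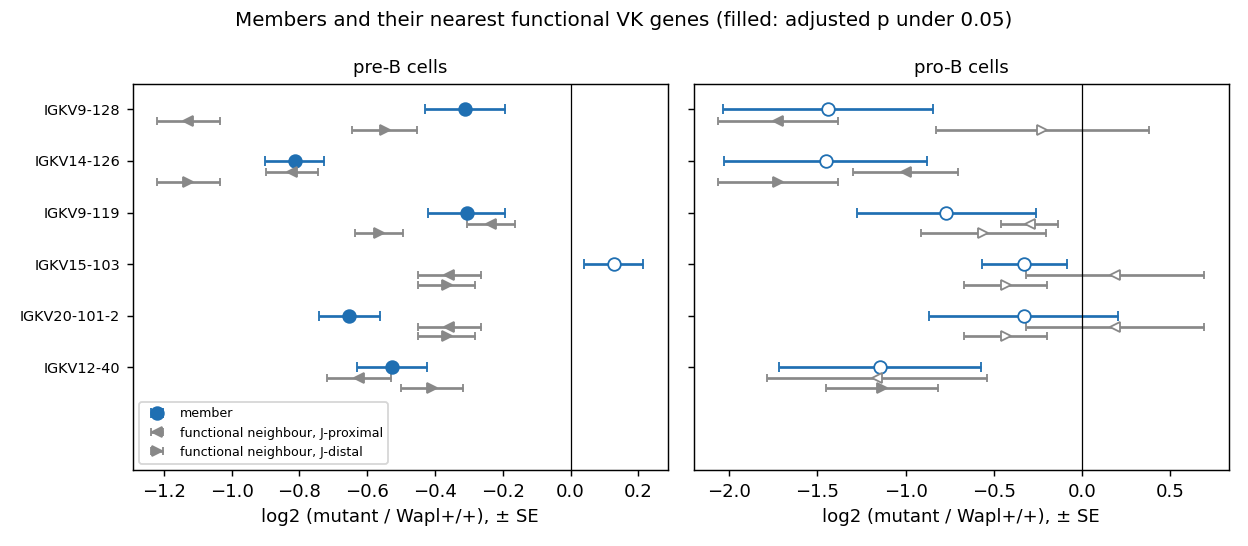
Log2 fold change, mutant over Wapl+/+, with its standard error (horizontal axes) of the 6 members (circles) and of the functional VK genes next to each on the side of the JK elements (left-pointing triangles) and on the far side (right-pointing triangles), in pre-B (left) and pro-B cells (right). Filled symbols passed the test; in pre-B cells all symbols but that of IGKV15-103 lie below 0, whereas in pro-B cells no member is filled.

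In pro-B cells, the same comparison called none of the 6 members tested, either higher or lower, in limma over 104 VK genes, and 40 of the 104 genes had an unadjusted p under 0.05. Over all genes tested, 12.5% were called higher and 13.5% lower. IGKV9-119 and IGKV9-128 passed the filter only through the Wapl+/+ libraries, their mutant means being 0.0274% and 0.0284%. The filter thus favoured a lower mutant value for them, so that their fold changes and p-values are not given here, nor is a median or a count of directions over the members tested. Of the other 4 members, 1 had an unadjusted p under 0.05, IGKV14-126. Centring each library on its median gene moved the whole comparison up by 0.33 and changed the calls over all genes from 13 higher and 14 lower to 17 higher and 5 lower.

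IGKV14-126 ranged from 0% to 0.705% in Wapl+/+ libraries (median 0.377%) and from 0.0496% to 0.132% in mutant libraries (median 0.0718%), and IGKV12-40 from 0% to 0.613% (median 0.454%) and from 0.0390% to 0.145% (median 0.115%). The groups overlapped only through the Wapl+/+ library that was at 0, replicate 2. The log2 fold changes were -1.45 (SE 0.58, limma adjusted p 0.0736) and -1.15 (SE 0.57, limma adjusted p 0.155). Without that library they were -2.02 and -1.69, with limma adjusted p-values of 7.6e-05 and 0.000686, and 2 members were called lower. Calls over all VK genes were not counted in that fit. Within the lower and the higher experiment numbers alone the log2 fold changes were -0.86 (limma adjusted p 0.713) and -2.04 (0.00523) for IGKV14-126 and -1.07 (0.612) and -1.22 (0.0664) for IGKV12-40.

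IGKV9-128 ranged from 0% to 0.610% in Wapl+/+ (median 0.0989%) and from 0% to 0.131% in mutant pro-B libraries (median 0%), and was above 0 in 5 of 6 and 2 of 6 of them. The highest value was that of Wapl+/+ replicate 2, and it is also the smallest value above 0 in that library. IGKV9-119 was above 0 in 4 of 6 libraries of either group, with medians of 0.0953% and 0.0182%. The groups of both pseudogenes overlapped.

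IGKV15-103 ranged from 0.875% to 1.83% in Wapl+/+ (median 1.17%) and from 0.595% to 1.31% in mutant pro-B libraries (median 0.976%). The groups overlapped, and the log2 fold change was -0.33 (SE 0.24, limma adjusted p 0.36), or -0.21 (limma adjusted p 0.42) without Wapl+/+ replicate 2. IGKV20-101-2 ranged from 0% to 0.420% (median 0.162%) and from 0.0390% to 0.197% (median 0.105%), also with overlap, at a log2 fold change of -0.33 (SE 0.54, limma adjusted p 0.681). It was -0.71 without Wapl+/+ replicate 2 (limma adjusted p 0.185) and -0.06 without Wapl+/+ replicate 1 (0.971). With each library centred on its median gene the log2 fold changes of these genes were 0.01 and 0.0045, so that neither lower mean held under that scaling. Among the functional neighbours, IGKV12-41 (-1.13), IGKV11-125 (-1.0) and IGKV17-127 (-1.72) were called lower in mutant pro-B cells.

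The third comparison set Wapl+/+ pro-B against Wapl+/+ pre-B cells. Of the 6 members tested, IGKV15-103 rose and none fell (limma over 105 VK genes). Over all genes, 10.5% were called higher and 8.57% lower in pro-B cells, and the median log2 fold changes were -0.64 for the members and -0.65 for all genes. Centring on the median gene moved the comparison up by 0.35 and changed the calls from 11 higher and 9 lower to 15 higher and 0 lower. IGKV15-103 had 0.690% to 0.762% in pre-B and 0.875% to 1.83% in pro-B libraries, all 6 of which were above all 4 pre-B libraries. The log2 fold change was 0.70 (SE 0.22, limma adjusted p 0.0403), or 1.04 relative to the median gene.

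The call for IGKV15-103 was close to the threshold. It was lost on leaving out any of the 4 pre-B libraries (adjusted p 0.0831, 0.114, 0.112 and 0.113 without replicates 1 to 4) or Wapl+/+ pro-B replicate 3 (0.0562), 4 (0.0736) or 6 (0.0623), and was kept without replicate 2, at 0.58 (0.0179). The pro-B and pre-B libraries share only 1 series of experiment numbers, and within it the log2 fold change was 0.60 with a limma adjusted p of 0.171. The call was also lost with the series as a covariate.

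IGKV12-40 and IGKV20-101-2 were lower in all 6 and in 5 of 6 Wapl+/+ pro-B libraries than in any pre-B library. At log2 fold changes of -1.38 (SE 0.65) and -1.41 (SE 0.59) they did not pass (limma adjusted p 0.16 and 0.121). Without Wapl+/+ pro-B replicate 2 both were called lower, at -0.83 (limma adjusted p 0.019) and -1.03 (0.0311). Calls over all VK genes were not counted in that fit either. IGKV14-126 was lower in 5 of 6 pro-B libraries (-1.20, SE 0.67, limma adjusted p 0.208), and without replicate 2 the log2 fold change was -0.63 (limma adjusted p 0.0535). The values of IGKV9-119 and IGKV9-128 in pro-B cells lay on both sides of their pre-B ranges, with log2 fold changes of -0.09 (SE 0.55, limma adjusted p 0.912) and 0.50 (SE 0.65, limma adjusted p 0.556). Without replicate 2 these were 0.18 (limma adjusted p 0.752) and 0.13 (0.818).

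The fourth comparison set mutant pro-B against mutant pre-B cells. Of 4 members tested, 3 fell and none rose in pro-B cells (limma over 100 VK genes), IGKV9-119 and IGKV9-128 being under the filter. Over all genes, 42% were called lower and 12% higher, and the median log2 fold changes were -1.46 for the members and -0.51 for all genes. IGKV12-40 went from 0.545% ± 0.0957 (SD, n = 4) in pre-B to 0.103% ± 0.0411 (n = 6) at the pro-B stage, with a log2 fold change of -2.0 (SE 0.29, limma adjusted p 4.32e-05). IGKV14-126 went from 0.411% ± 0.0175 to 0.0819% ± 0.0319, at -1.84 (SE 0.27, limma adjusted p 4.32e-05). IGKV20-101-2 went from 0.268% ± 0.0103 to 0.112% ± 0.0685, at -1.09 (SE 0.33, limma adjusted p 0.0116). For each of these 3 genes all 6 pro-B libraries were below all 4 pre-B libraries. Within the 1 series of experiment numbers that both stages share, IGKV20-101-2 was at -1.19 with a limma adjusted p of 0.0729, and the other 2 were still called lower.

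IGKV15-103 was at 0.796% ± 0.0806 in mutant pre-B and 0.976% ± 0.253 in mutant pro-B cells, with overlap (log2 fold change 0.24, SE 0.19, limma adjusted p 0.306). Here the centring on the median gene mattered most, since it moved the comparison up by 0.61 and changed the calls over all genes from 12 higher and 42 lower to 33 higher and 19 lower. Relative to the median gene, IGKV15-103 was higher in pro-B cells by 0.85 (limma adjusted p 0.00502), IGKV12-40 and IGKV14-126 were still called lower, and IGKV20-101-2 was at -0.48 (limma adjusted p 0.314).

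Whether the effect of the mutation differed between the stages was tested as an interaction. No member was called in limma, either higher or lower, and none of the 6 had an unadjusted p under 0.05, while over all 106 genes tested 0% were called higher and 1.89% lower. The pro-B minus the pre-B log2 fold change ranged from -1.13 (SE 0.76, limma adjusted p 0.653, IGKV9-128) to 0.32 (SE 0.67, limma adjusted p 0.884, IGKV20-101-2). Centring moved the median of this comparison by 0.40, and 1 gene in place of 2 was called. Without Wapl+/+ pro-B replicate 2, IGKV14-126 was called, at -1.20 (limma adjusted p 0.0429), and the other 5 members ranged from -1.16 (0.0624, IGKV12-40) to -0.06 (0.967, IGKV20-101-2).

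For IGKV12-40 the genes whose shares ran most alike across the 20 libraries were IGKV8-21 (Pearson r 0.949 over 20 libraries on the log2 scale), IGKV5-39 (0.935) and the member IGKV14-126 (0.934). For IGKV14-126 the closest was IGKV5-39 (0.939) and for IGKV20-101-2 again IGKV8-21 (0.847). IGKV15-103 ran most like IGKV1-135 (0.848) and IGKV14-111 (0.725). The libraries share stage, genotype and scaling, so these values describe the pattern and carry no test.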

How the data were processed

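VDJ-seq libraries of Igk joints were analysed per VK gene. For these the authors deposited a normalised count per VK gene, made from MiSeq reads with UMI adapters. The values are not whole and the total behind them is not named in the sources used here, so they were treated as a score and rescaled to 100 over the 163 VK genes of each library, in place of the percent values first planned for. The authors deposited H3K27ac peaks on mm9 with a score of 0 throughout. Aligner and filters for the VDJ-seq values are not given in the sources used here. Depth in reads is not given in the sources used here. Ranges of the smallest value above 0 are given in its place, and they are upper limits for the smallest share a library could show.

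Libraries were grouped by their labels, which give experiment numbers but no mice, so p-values measure only the spread between libraries. The members and lists were chosen with earlier results of these data known. Values were tested as log2(percent + 0.05) with limma 3.58.1 (trended empirical Bayes, R 4.3.3) over all VK genes with a mean of at least 0.05% in the libraries compared, two-sided, with Benjamini-Hochberg adjustment at 0.05. Members with a group mean of at least 0.05% were described and the others above 0 were named. Neighbour ratios used exact permutation tests. RSSs, frames and octamers were read from NCBIM37 with pysam 0.24.0, identities came from blastn 2.17.0+, and gene types from GENCODE vM1 and RefSeq, by symbol. On simulated data with 30 genes changed by 1 on the log2 scale, 30 were recovered in the pre-B comparison of 107 genes and 15 in the pro-B comparison of 104 genes. Igh, Hi-C and single JK data were not analysed here. Alternatives covered pseudocount, filter, scale, adjustment, scaling, weights, denominator, series of experiment numbers and each library left out.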

Additional observations from a re-analysis of the deposited data

Results flagged for a closer look

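For each of the 6 most used members and for the summed share of all members, the values of each of the 4 groups, 28 sets in all, were checked for a library far from the others, and chance alone marks about 1 set in 20. IGKV9-128 was marked in 2 groups. In Wapl+/+ pre-B cells, replicate 3 was at 0.0625% of joints while the next library was at 0.0865%. In mutant (Wapl∆P1,2/∆P1,2) cells at the pro-B stage, replicate 3 was at 0.131% while the next library was at 0.0390% and the other 4 were at 0. What sets these libraries apart for this gene was not tested.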

How the results depend on the processing

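Of the results for single members, 588 kept direction and side of the threshold under an alternative, 28 lost and 25 gained a call and 11 changed sign. In the following, the cause was not tested. Members called lower in mutant pre-B cells went from 5 to 4 under median centring, to 3 with the Holm adjustment, 3 in the libraries of lower experiment numbers alone and 3 in those of higher numbers alone, and with libraries left out from 3 to 5 lower and 0 to 1 higher. In mutant pro-B cells none was called lower, against 2 with a pseudocount of 0.25, 2 without a logarithm, 4 with array weights, 1 in the libraries of higher numbers alone and 0 to 2 with libraries left out. In Wapl+/+ pro-B against pre-B cells the 1 higher call became 0 with Holm, with series as a covariate and in the libraries of higher numbers alone, and 0 to 1 with libraries left out; lower calls went from 0 to 1 without a filter (IGKV3-8), 3 without a logarithm, 3 with array weights and 0 to 2 with libraries left out. In mutant pro-B against pre-B cells median centring gave 1 higher call, and the 3 lower calls became 2 under centring and 2 with Holm, that of IGKV20-101-2 being lost (limma adjusted p 0.314 and 0.281). The interaction had 2 lower calls with array weights and 0 to 1 with libraries left out. Calls over all VK genes were not counted in the fits with a library left out. Summed shares became 3.25%, 2.46%, 3.16% and 1.73% (pre-B Wapl+/+ and mutant, pro-B Wapl+/+ and mutant) without the 2 most used functional genes, and 0.172, 0.129, 0.00347 and 0.00375 as deposited.

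Sign changes, all in values that were not called, concerned IGKV20-101-2 (0.0045) and IGKV15-103 (0.0083) in pro-B cells under centring, IGKV9-119 in Wapl+/+ pro-B against pre-B cells (0.048 with a pseudocount of 0.25, 0.024 without a logarithm, 0.37 with array weights, 0.26 under centring, -0.36 to 0.18 with libraries left out) and, in the interaction, IGKV14-126 (0.021 without a logarithm) and IGKV20-101-2 (-0.15 with array weights, -0.059 to 0.59 with libraries left out). Over all genes, calls went from 72 to 44 (Holm) in pre-B, from 27 to 7 (Holm) and 49 (array weights) in pro-B, from 20 to 3 (Holm), 13 (without the 2 most used genes), 39 (no logarithm) and 63 (array weights) in Wapl+/+ pro-B against pre-B, from 54 to 27 (Holm) in mutant pro-B against pre-B, and from 2 to 6 (no logarithm), 19 (array weights), 1 (centring) and 1 (without the 2 most used genes) in the interaction. No paired analysis was possible because the labels give the groups no shared replicate numbers. Smallest values above 0 of up to 0.610% in pro-B libraries limit what can be said of members under that share.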
